A study of Mus musculus with 20 samples.

Results

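Chelation of zinc ions during a brief glutamate stimulus was examined by comparing cultures that received glutamate together with the chelator TPA with cultures that received glutamate alone. The comparison uses 10 of the 20 libraries of the series, 5 in each group, chosen by their labels and not by any measured value. In the TPA group, dissociated hippocampal cultures at day 10 in vitro were held for 1 min with 10 µM TPA and then received a 2-min pulse of 50 µM glutamate with 10 µM TPA. In the glutamate group the pulse held 50 µM glutamate and no chelator. All cultures then spent 90 min at 37 °C before lysis. Both groups came from C57BL6 embryos at embryonic day 18, with hippocampi pooled from 4 embryos, and both had 4 µM cytosine arabinoside, which kills dividing cells, from day 3 to day 6. The series also holds a glutamate group with 10 µM ZnCl2 and an unstimulated control group, which are used below only to place levels. No group analysed here received TPA without glutamate, so an action of the chelator of its own and an action on the glutamate response cannot be told apart. The labels call the libraries biological replicates, but with pooled tissue the p-values measure the spread between these samples, which may be technical.

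Zinc is stored with glutamate in synaptic vesicles of some hippocampal neurons, where the transporter ZnT3 (Slc30a3) loads it, and released zinc inhibits NMDA receptors and acts on other channels and receptors. TPA, tris(2-pyridylmethyl)amine, binds zinc ions. Inside cells, free zinc is sensed by the transcription factor MTF-1, which binds metal response elements and switches on the metallothioneins, small proteins that hold zinc, and the exporter ZnT1 (Slc30a1). Zinc leaves the cytosol through SLC30 transporters and enters it through SLC39 transporters. Glutamate acting on neurons induces immediate early genes such as Fos, Egr1 and Npas4 through calcium and kinase signalling, and later effector genes such as Bdnf. Cells that misfold protein in the endoplasmic reticulum induce chaperones such as BiP (Hspa5), in part through ER stress response elements, while amino acid shortage and other stresses act through the factor ATF4.

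The promoters of the 2 metallothionein genes best known to respond to zinc are shown because they hold the core letters of the metal response element. Whether these copies take part in a response to zinc was not tested, and elements outside the windows are not shown. Each is the 250 bases before the RefSeq transcription start in GRCm38.p6 (mm10), 5′ to 3′ on the gene's strand, and capitals mark the metal response element core.
Mt1: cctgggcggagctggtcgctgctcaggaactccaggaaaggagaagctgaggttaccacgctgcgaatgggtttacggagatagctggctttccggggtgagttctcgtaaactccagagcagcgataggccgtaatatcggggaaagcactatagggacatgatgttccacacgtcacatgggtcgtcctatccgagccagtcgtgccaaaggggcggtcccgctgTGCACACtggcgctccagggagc
Mt2: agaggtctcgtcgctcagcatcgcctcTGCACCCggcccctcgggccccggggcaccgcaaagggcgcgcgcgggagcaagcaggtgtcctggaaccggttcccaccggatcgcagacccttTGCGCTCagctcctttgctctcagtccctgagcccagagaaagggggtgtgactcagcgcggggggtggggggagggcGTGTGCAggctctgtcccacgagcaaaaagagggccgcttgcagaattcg
The Mt1 window lies at chr8:94178839-94179088 on the plus strand and holds 1 core, whose first base is 23 bases before the RefSeq start. Bases after that start were not searched, so the number of cores is that of the window and not of the whole promoter. The Mt2 window lies at chr8:94172368-94172617, also on the plus strand, and holds 3 cores that begin 223, 128 and 50 bases before the start, the last of them on the other strand. The RefSeq start of Mt2 was not found in the GENCODE transcripts of the gene, which begin further downstream. The letters searched were TGCACNC or TGCGCNC on both strands, and 7032 of 32851 RefSeq promoter windows of the same length (21.4%) hold at least 1 match, so a match is common and is a description of the sequence.

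Library totals were 28692470 to 38767979 counts with TPA and 35559330 to 40934630 counts with glutamate alone, and the difference of their means did not pass a 2-sided exact permutation test (p = 0.183, adjusted p = 0.366; the smallest p for 5 against 5 is 0.00794). The 10 most abundant genes took 3.2 to 3.31% of counts with TPA and 3.14 to 3.33% with glutamate alone. A count of 3 equals 0.0738 to 0.105 CPM (counts divided by the library's TMM-adjusted size), a floor that covers counting error only. Libraries within a group stood apart from one another: limma's quality weights were 0.284 for glutamate replicate 4, 0.371 for glutamate replicate 5 and 0.409 for TPA replicate 1, against 1.02 to 2.38 for the other 7. On the first principal component of all 20 libraries of the series, with 19.5% of the variance, glutamate replicate 5 lay at 20.3. Glutamate replicates 1 to 4 ran from −15 to −6.42 there, and ZnCl2 replicate 5 lay at 17.4. On the second component, with 10.6%, glutamate replicate 4 lay at −20.9 and TPA replicate 1 at −17.7. Values without one of these libraries stand beside several of the results below.

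Neither metallothionein passed the adjusted threshold. Mt1 was at 56.1, 48.2, 54.9, 51.7 and 48.5 CPM in TPA replicates 1 to 5, against 50.9, 56, 54.9, 58.8 and 51.7 CPM in glutamate replicates 1 to 5. The groups overlapped, with means of 51.9 ± 3.63 CPM with TPA and 54.5 ± 3.24 CPM with glutamate alone (SD, n = 5 each). TPA over glutamate gave a log2 fold change of −0.069 with a standard error (SE) of 0.06 and a 95% interval from −0.19 to 0.054. Mt2 was at 33.7, 24.9, 28.4, 25.7 and 26.9 CPM with TPA, against 29.3, 33.2, 31.5, 36.2 and 29.1 CPM with glutamate alone. TPA replicates 2 to 5 lay below every glutamate library and TPA replicate 1 lay among them. For Mt2 the log2 fold change was −0.19 (SE 0.08), with an unadjusted p of 0.0344 and an adjusted p of 0.663 in edgeR's quasi-likelihood test with Benjamini-Hochberg adjustment. Without glutamate replicate 4, the library highest in Mt2, the value was −0.14 with an unadjusted p of 0.115, and without TPA replicate 1 it was −0.27. As levels, Mt2 averaged 35.9 ± 4.11 CPM in the ZnCl2 group and 28.4 ± 1.77 CPM in control.

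Over all genes, no transcript passed an adjusted p of 0.05. The edgeR test called 0 of 14411 genes tested, which is 0%, and the smallest adjusted p was 0.482. At an unadjusted p under 0.05 there were 1052 genes (7.3%), where 721 would be reached by the number of tests alone. Of these, 459 (3.19%) were higher with TPA and 593 (4.11%) were lower, and with library size alone in place of TMM factors the share that was higher was 30.8% instead of 43.6%. All 5 TPA libraries lay above all 5 glutamate libraries for 72 genes (0.5%) and below them for 76 genes (0.527%). DESeq2 called 1 gene (0.00694%), the Yippee family member Ypel1, and limma-voom called 0 genes with 1005 at an unadjusted p under 0.05 (6.97%).

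The intervals were narrow. The median absolute log2 fold change was 0.057. Among the 12523 genes that averaged 1 CPM or more, the 95% interval reached a median of 0.13 to either side of the estimate, and of those genes 12495 (99.8%) had an interval that lay wholly within a 2-fold change in either direction. Only 4 of them had an absolute log2 fold change above 1, namely Lars2, Mir6236, Entpd4 and Crisp1, the last pair named after their values were seen. In the plot of fold change against abundance, genes lie close to 0 over the whole range of levels.

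**Figure D1:**
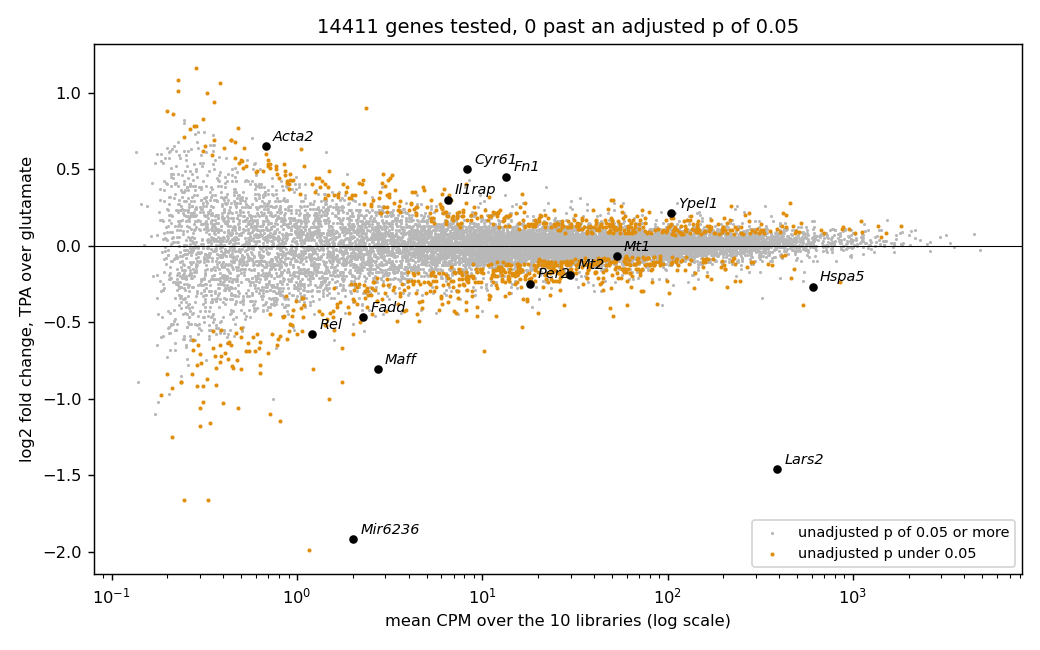
Log2 fold change of TPA over glutamate (vertical axis) against the mean CPM of the 10 libraries (horizontal, log axis) for the 14411 genes tested. Orange points have an unadjusted p under 0.05 and named points are described in the text. The 0 genes past the adjusted threshold leave the picture as a band around 0, and the named Lars2 and Mir6236 lie well below it at log2 fold changes of −1.46 and −1.92.

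The label of hippocampal cultures was checked on marker lists. Summed pan-neuronal markers were at 7080 to 7450 CPM with TPA and 6780 to 7410 CPM with glutamate alone, and excitatory markers at 1220 to 1380 CPM and 1180 to 1380 CPM in the same order. Interneuron markers summed to 1350 to 1570 CPM with TPA and 1230 to 1590 CPM with glutamate alone, and markers of Cajal-Retzius cells to 801 to 1020 CPM and 660 to 952 CPM. Astrocyte markers summed to 748 to 898 CPM with TPA and 791 to 964 CPM with glutamate alone. Markers of other cell types were far lower. Oligodendrocyte-lineage markers (6 of 9 tested) summed to 25.1 to 27.9 CPM with TPA and 23.7 to 30.8 CPM with glutamate alone. Markers of dividing cells summed to 14.1 to 16 CPM with TPA and 14.4 to 16.8 CPM with glutamate alone, and mural and fibroblast markers to 10.3 to 13.3 CPM and 10 to 11.8 CPM. Microglial markers (5 of 10 tested) summed to 3.54 to 6.13 CPM with TPA and 3.11 to 5.71 CPM with glutamate alone. Endothelial markers (2 of 7 tested) summed to 3.68 to 4.46 CPM and 3.42 to 5.41 CPM, and choroid plexus markers (2 of 4 tested) to 2.77 to 7.19 CPM and 2.9 to 5.71 CPM. The 5 blood markers had 0 counts in all 10 libraries. The lists differ in length and a sum can rest on few abundant genes, so the sums do not compare amounts of cell types. In bulk libraries, fewer cells of a type and less RNA per cell cannot be told apart.

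Other zinc-handling genes likewise had no member past the adjusted threshold. Mt3, the brain metallothionein, averaged 25 ± 2.94 CPM with TPA and 27.7 ± 3.92 CPM with glutamate alone, and the sensor Mtf1 averaged 43.6 CPM and 45.7 CPM. All 4 tested members of the list of 5 metallothioneins and sensor were below 0 in log2 fold change, with a median of −0.11, where 48.7% of all genes tested were below 0. Mt4, a metallothionein of squamous epithelia, was too low to test.

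Among the SLC30 exporters, 8 of 10 were tested, 5 above 0, against 51.3% of all genes, and 3 below, with a median log2 fold change of 0.014. Slc30a1, the exporter ZnT1 of the plasma membrane and an MTF-1 target, was at 37.4, 45, 40.2, 45.4 and 45.1 CPM with TPA, against 48.3, 43.5, 49.5, 42.9 and 45.3 CPM with glutamate alone. Its log2 fold change was −0.11 (SE 0.06) and the groups overlapped. Slc30a7, which moves zinc into the Golgi, averaged 26.6 CPM with TPA and 30.4 CPM with glutamate alone (log2 fold change −0.19, unadjusted p 0.049 in edgeR's quasi-likelihood test), with overlap. Slc30a3, the vesicular transporter ZnT3, averaged 4.99 CPM with TPA and 4.43 CPM with glutamate alone (log2 fold change 0.17, SE 0.17). Its libraries ran from 4.29 to 5.79 CPM with TPA and from 3.09 to 6.05 CPM with glutamate alone. The core letters of the metal response element occur in the promoters of 6 of 9 matched SLC30 genes, Slc30a1 and Slc30a3 among them. They occur in 4 of 11 matched SLC39 genes and in 21.4% of all promoter windows, and whether any of these copies is active was not tested.

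Among the SLC39 importers, 11 of 14 were tested, 4 above 0 and 7 below, with a median log2 fold change of −0.038. The importer Slc39a11 (ZIP11) was at 24.7, 23.8, 25.2, 25.7 and 24.9 CPM with TPA, against 28.1, 31.2, 29.5, 27.4 and 26.3 CPM with glutamate alone. Every TPA library lay below every glutamate library, and this is the 1 zinc-handling gene whose groups did not overlap. Its log2 fold change was −0.20 (SE 0.06), with an unadjusted p of 0.00159 and an adjusted p of 0.482 in edgeR's quasi-likelihood test. Slc39a10 (ZIP10), an importer of the plasma membrane, averaged 102 CPM with TPA and 96.1 CPM with glutamate alone (log2 fold change 0.092), with overlap. Slc30a2, Slc30a8, Slc39a4, Slc39a5 and Slc39a8 were too low to test. In the plot of zinc-handling genes, the interval of Mt2 excludes 0 and those of Mt1, Mt3 and Mtf1 include it, and the transporters scatter on both sides of 0.

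**Figure D2:**
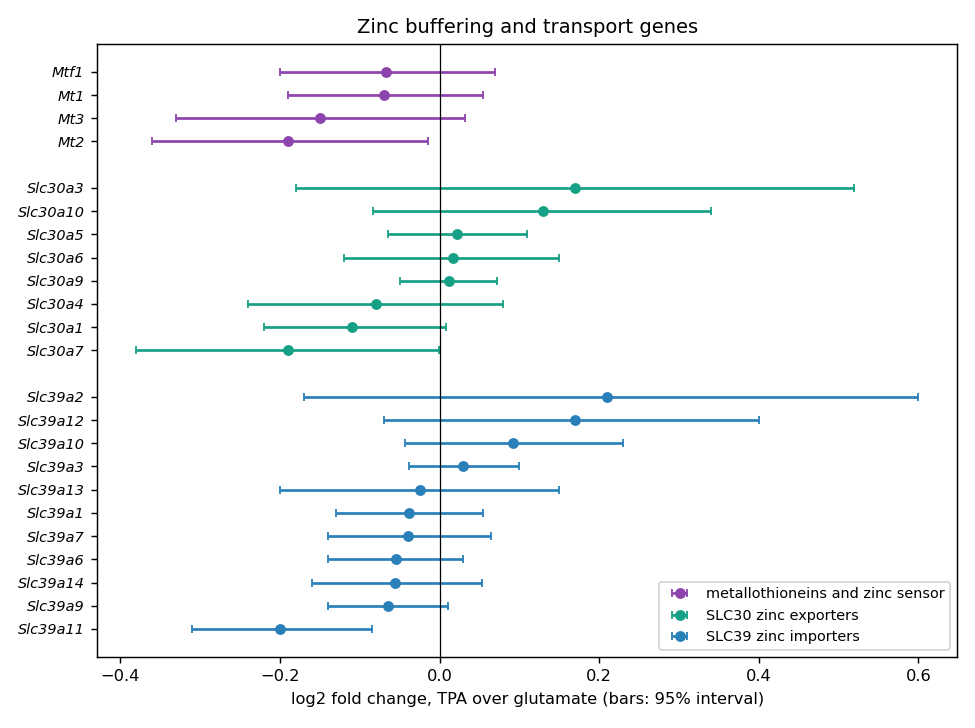
Log2 fold change of TPA over glutamate with its 95% interval for 4 metallothionein and sensor genes, 8 SLC30 exporters and 11 SLC39 importers. Mt1 lies at −0.069, Mt2 at −0.19, Slc30a1 at −0.11 and Slc39a11 at −0.20, and no gene passes the adjusted threshold.

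No rapid immediate early gene passed the adjusted threshold. Of 24 such genes tested, 14 were above 0 and 10 below, with a median log2 fold change of 0.046, and 4 were higher and 2 lower with TPA at an unadjusted p under 0.05, against 3.19% and 4.11% of all genes. Fos, the best known of them, was at 86, 76.4, 75, 73 and 78.5 CPM with TPA, against 82.1, 71.8, 75.1, 102 and 48.7 CPM with glutamate alone. The TPA libraries lay close together and inside the wide range of the glutamate libraries, of which replicate 4 was the highest and replicate 5 the lowest. For Fos the log2 fold change was 0.034 (SE 0.17), and −0.093 without glutamate replicate 5. As a level, Fos averaged 35.1 CPM in control.

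Egr1, a zinc-finger transcription factor, was at 56.9, 50.3, 55.2, 53.3 and 63.1 CPM with TPA, against 42.5, 34.7, 43.5, 57.1 and 48.9 CPM with glutamate alone. Glutamate replicate 4 lay among the TPA libraries and the other 4 glutamate libraries lay below all of them. The log2 fold change was 0.30 (SE 0.11), with an unadjusted p of 0.00946 and an adjusted p of 0.642 in edgeR's quasi-likelihood test, and 0.40 without glutamate replicate 4. Its relatives Egr2 and Egr4 averaged 2.47 CPM and 16.3 CPM with TPA, against 1.86 CPM and 14.1 CPM with glutamate alone (log2 fold changes 0.41 and 0.21). Npas4, the neuronal activity factor, was at 69.9, 59.1, 57.8, 60.5 and 68.5 CPM with TPA, against 53.1, 44.8, 47.4, 75 and 39.9 CPM with glutamate alone. Again glutamate replicate 4 alone lay above the TPA libraries, and the log2 fold change was 0.28 (SE 0.15), or 0.45 without that library. Arc, the synaptic cytoskeletal protein, was at a log2 fold change of 0.10, Fosb at −0.066, Nr4a1 at −0.079 and Klf4 at 0.12, all with overlap.

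The immediate early gene furthest above 0 was Cyr61, a matricellular growth factor, which averaged 9.69 ± 1.62 CPM with TPA and 6.87 ± 2.2 CPM with glutamate alone (log2 fold change 0.50, SE 0.18, unadjusted p 0.0122 by edgeR's quasi-likelihood test). Maff, a small basic leucine zipper factor, stood on the other side. It was at 2.38, 2.07, 1.93, 1.77 and 1.72 CPM with TPA, against 3.27, 4.33, 3.86, 4.05 and 1.94 CPM with glutamate alone. Glutamate replicates 1 to 4 lay above every TPA library and replicate 5 lay within them. The log2 fold change of Maff was −0.81 (SE 0.24, unadjusted p 0.00234 by the same test), and −0.97 without glutamate replicate 5. Atf3, a stress-inducible factor, was at 8.81, 8.15, 8.74, 7.7 and 5.54 CPM with TPA, against 12.5, 15.7, 14.5, 15 and 5.31 CPM with glutamate alone. Glutamate replicates 1 to 4 lay above all TPA libraries and replicate 5 below them. Atf3 had a log2 fold change of −0.69 (SE 0.28), and −0.89 without glutamate replicate 5.

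Later activity-regulated genes lay mostly below 0. Of 28 tested, 22 were below 0 and 6 above, with a median log2 fold change of −0.17, and 7 were lower and 0 higher with TPA at an unadjusted p under 0.05. Over all genes 48.7% were below 0 and 4.11% were lower at that p. Bdnf, the neurotrophin, was at 137, 130, 121, 121 and 119 CPM with TPA, against 154, 172, 156, 181 and 102 CPM with glutamate alone. Glutamate replicates 1 to 4 lay above all TPA libraries and glutamate replicate 5 below all of them. Bdnf had a log2 fold change of −0.28 (SE 0.12), with an unadjusted p of 0.0281 and an adjusted p of 0.662 in edgeR's quasi-likelihood test. Without glutamate replicate 5 it was −0.40 (SE 0.096, adjusted p 0.104 by the same test). Vgf, a neuropeptide precursor, was at 306, 321, 296, 283 and 228 CPM with TPA, against 376, 404, 389, 441 and 200 CPM with glutamate alone, with the same library apart. Its log2 fold change was −0.34, and −0.49 without glutamate replicate 5. The kinase-pathway inhibitor Spry4 was at 14 to 20 CPM with TPA, against 24.5 to 27.3 CPM in glutamate replicates 1 to 4 and 12.1 CPM in replicate 5, with a log2 fold change of −0.44, and −0.61 without that library. The log2 fold changes of Pcsk1, a prohormone convertase, of the pentraxin Nptx2 and of the surface protein Nrn1 were −0.24, −0.23 and −0.17.

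Chaperones of the endoplasmic reticulum and genes of the unfolded protein response lay to one side. All 21 tested members were below 0, against 48.7% of all genes, with a median log2 fold change of −0.15, and 10 of them were lower with TPA at an unadjusted p under 0.05, against 4.11% of all genes. No member passed the adjusted threshold, and no member had groups that did not overlap. The list was chosen with earlier results of these libraries known, so its direction is no independent evidence.

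The promoters of Hspa5 and Hsp90b1, which encode the main luminal chaperones BiP and GRP94, are shown because they carry the ER stress response element, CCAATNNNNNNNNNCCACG, marked in capitals. Each is again the 250 bases before the RefSeq start in GRCm38.p6.
Hspa5: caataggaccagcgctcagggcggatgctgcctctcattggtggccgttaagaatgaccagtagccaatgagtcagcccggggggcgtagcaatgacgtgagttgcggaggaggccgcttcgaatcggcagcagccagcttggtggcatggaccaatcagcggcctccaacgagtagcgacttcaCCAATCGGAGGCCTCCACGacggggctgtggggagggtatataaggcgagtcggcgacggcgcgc
Hsp90b1: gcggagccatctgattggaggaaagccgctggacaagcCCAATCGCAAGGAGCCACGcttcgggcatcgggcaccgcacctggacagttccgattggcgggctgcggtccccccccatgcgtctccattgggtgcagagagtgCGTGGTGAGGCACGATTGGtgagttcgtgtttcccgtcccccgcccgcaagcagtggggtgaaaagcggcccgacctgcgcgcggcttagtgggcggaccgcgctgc
The Hspa5 window lies at chr2:34771840-34772089 on the plus strand with 1 element beginning 65 bases before the start, and the Hsp90b1 window at chr10:86705445-86705694 on the minus strand with elements beginning 212 and 107 bases before the start, 1 on each strand. Exact matches on either strand occur in 37 of 32851 windows (0.113%) and in 7 of the 18 chaperone and unfolded protein response genes matched by symbol, namely Calr, Canx, Creld2, Dnajc3, Hsp90b1, Hspa5 and Pdia6. Matches do not overlap one another, and 0 of 18 matched ATF4 genes hold one.

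Hspa5 was at 631, 577, 556, 522 and 475 CPM with TPA, against 649, 753, 695, 755 and 467 CPM with glutamate alone. Glutamate replicates 1 to 4 lay above every TPA library and replicate 5 below all of them. The means were 552 ± 58.7 CPM with TPA and 664 ± 118 CPM with glutamate alone, and the log2 fold change was −0.27 (SE 0.13, unadjusted p 0.0526 and adjusted p 0.68 by edgeR's quasi-likelihood test). Without glutamate replicate 5 it was −0.37 (SE 0.12, adjusted p 0.15), and without glutamate replicate 4 it was −0.22. Hsp90b1 was at 470, 437, 434, 417 and 394 CPM with TPA, against 496, 558, 519, 514 and 401 CPM with glutamate alone, with replicate 5 the only glutamate library among the TPA values. Its log2 fold change was −0.21 (SE 0.08, unadjusted p 0.0129 and adjusted p 0.644 by the same test), and −0.28 without glutamate replicate 5.

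The disulfide isomerase Pdia4 was at 48.5, 45.8, 44.6, 43.8 and 41.5 CPM with TPA, against 54.5, 59.6, 56.7, 57 and 44.1 CPM with glutamate alone. Replicate 5 was again the only glutamate library within the range of the TPA libraries. The log2 fold change of Pdia4 was −0.28 (SE 0.09), the smallest unadjusted p of the list at 0.00444, with an adjusted p of 0.615 in edgeR's quasi-likelihood test. Without glutamate replicate 5 it was −0.35. Hyou1, a chaperone of the Hsp70 family, averaged 189 CPM with TPA and 228 CPM with glutamate alone (log2 fold change −0.27). Sdf2l1, a BiP-associated protein, averaged 10 CPM with TPA and 13.8 CPM with glutamate alone (log2 fold change −0.46). Dnajb9 and Creld2 were at −0.29 and −0.28, and the transcription factor Xbp1 was at −0.09. Cytosolic and mitochondrial heat shock genes differed from this: of 18 tested, 9 were above 0 and 9 below, the median was −0.0002, and 0 had an unadjusted p under 0.05 in either direction.

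Genes of the ATF4 stress response were similarly placed. Of 20 tested, 19 were below 0, with a median log2 fold change of −0.22, and 6 were lower and 0 higher with TPA at an unadjusted p under 0.05, where 48.7% of all genes were below 0 and 4.11% lower at that p. Psat1, an enzyme of serine synthesis, was at 67.8, 68.2, 69.9, 63.5 and 59.7 CPM with TPA, against 77, 90.8, 88.7, 84.8 and 64.1 CPM with glutamate alone. Only glutamate replicate 5 lay within the TPA range, and the log2 fold change was −0.30 (SE 0.10, unadjusted p 0.00582 and adjusted p 0.642 by edgeR's quasi-likelihood test), and −0.38 without that library. Ppp1r15a (GADD34), which directs removal of the phosphate from the initiation factor eIF2α, was at 61.4, 53.9, 53.5, 51.6 and 41.5 CPM with TPA, against 68.8, 80.1, 75.5, 76.8 and 41.9 CPM with glutamate alone. Its log2 fold change was −0.39 (SE 0.17), and −0.53 without glutamate replicate 5. The factor CHOP (Ddit3) was at −0.36, Sesn2 at −0.46 and Atf4 itself at −0.15. Phgdh, the entry enzyme of serine synthesis, was the 1 member above 0, at 0.033.

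In these 3 lists glutamate replicate 5 stood apart from the other glutamate libraries. The median log2 deviation of the chaperone list from the mean of the 10 libraries was −0.011, −0.046, −0.046, −0.083 and −0.18 in TPA replicates 1 to 5, against 0.05, 0.24, 0.11, 0.16 and −0.16 in glutamate replicates 1 to 5. For the ATF4 list the medians were −0.056, −0.029, −0.061, −0.13 and −0.28 with TPA, against 0.10, 0.24, 0.15, 0.20 and −0.26 with glutamate alone. For the later activity genes they were 0.017, −0.00052, −0.09, −0.10 and −0.16 with TPA, against 0.11, 0.18, 0.16, 0.27 and −0.33 with glutamate alone. In each list glutamate replicates 1 to 4 lay above all TPA libraries, and replicate 5 lay below at least 4 of the 5 TPA libraries. A low replicate 5 was not particular to the glutamate group. In the TPA, ZnCl2 and control groups it was also the lowest library, at −0.18, −0.10 and −0.10 for the chaperones and −0.28, −0.25 and −0.21 for the ATF4 list. For the later activity genes this held in the TPA and ZnCl2 groups and not in control. The labels do not say what libraries of the same number share.

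Replicate 5 was the lowest glutamate library for 18 of 21 chaperone genes, 18 of 20 ATF4 genes and 24 of 28 later activity genes, against 23.6% of all genes. Its summed pan-neuronal markers, 7410 CPM, were the highest of the glutamate group. Its part in the results was not tested beyond leaving it out. Without it the list medians were −0.21, −0.33 and −0.25, and 16, 13 and 18 members were lower with TPA at an unadjusted p under 0.05, against 8.29% of all genes in that fit. With all glutamate libraries but replicate 5 counted, 11 chaperone genes, 10 ATF4 genes and 13 later activity genes had every TPA library below every glutamate library, against 3.67% of all genes. Since replicate 5 was singled out as low in these lists, leaving it out moves their values further below 0 by construction. TPA replicate 5, also low in these lists, was kept. These values are therefore no further evidence of a difference. As levels, the chaperone median ran from −0.10 to 0.29 over the ZnCl2 libraries and from −0.10 to 0.02 over the control libraries. The heatmap of the lists shows glutamate replicate 5 beside the other glutamate libraries.

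**Figure D3:**
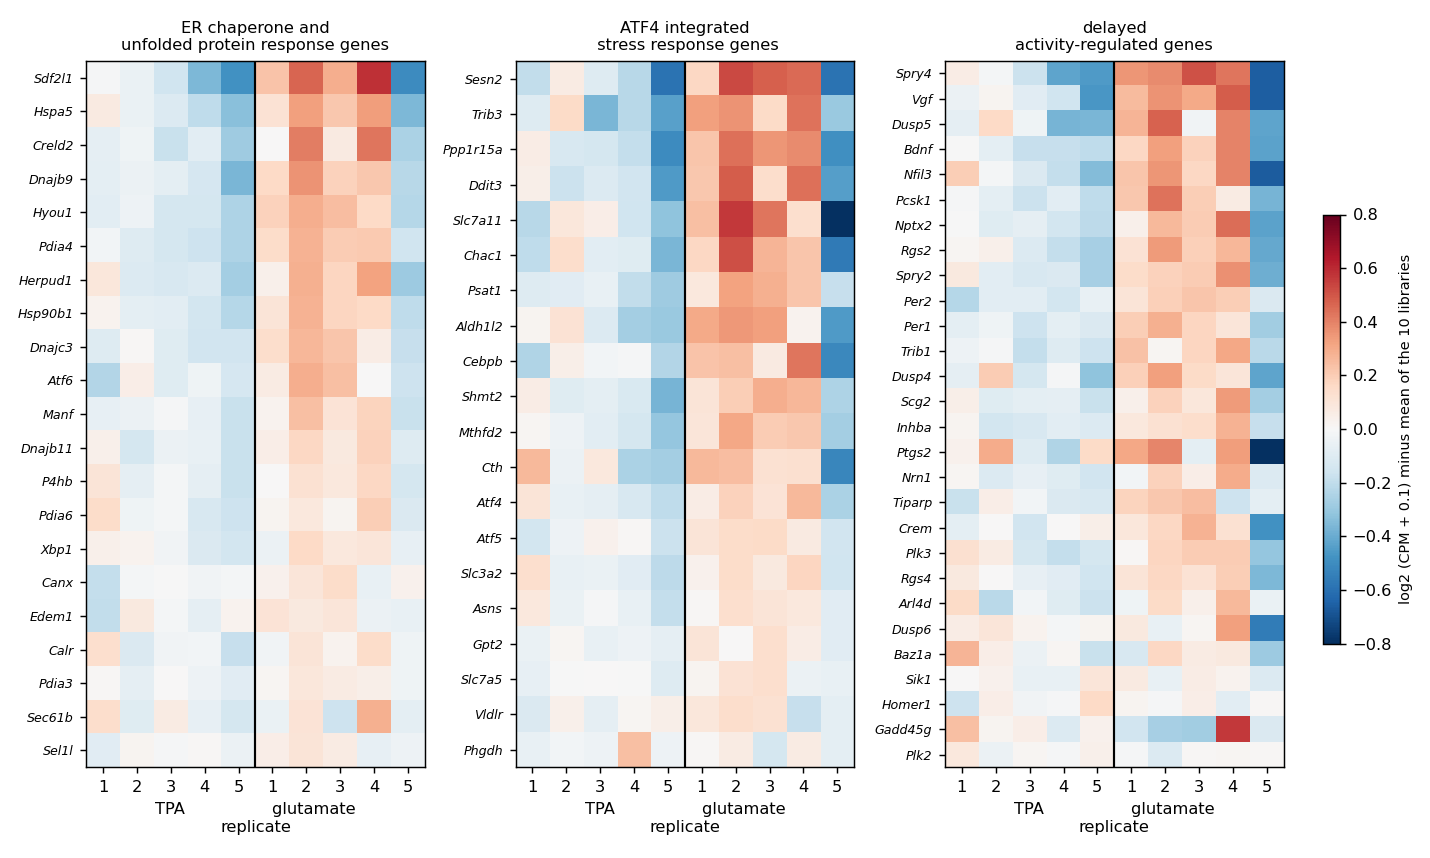
Heatmaps of log2(CPM + 0.1) minus the gene's mean over the 10 libraries for 21 chaperone and unfolded protein response genes, 20 ATF4 genes and 28 later activity genes. TPA replicates 1 to 5 are on the left and glutamate replicates 1 to 5 on the right. Genes run in order of their log2 fold change without glutamate replicate 5. Glutamate replicates 1 to 4 are mostly above the mean, and glutamate replicate 5 has list medians of −0.16, −0.26 and −0.33.

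With that library left out of the test, edgeR called 2 of 14478 genes (0.0138%), both lower with TPA and in none of the lists. Kcna4, the fast-inactivating potassium channel Kv1.4, was at 58.6, 58.1, 56.3, 58.2 and 56.9 CPM with TPA, against 79.1, 71.7, 75.8, 69.4 and 52.8 CPM with glutamate alone. The TPA libraries lay within a few CPM of one another, glutamate replicates 1 to 4 above them and glutamate replicate 5 below. Without replicate 5 the log2 fold change was −0.36 (SE 0.055, adjusted p 0.0191 by edgeR's quasi-likelihood test), and with it −0.27. Bmp3, a growth factor of the BMP family, was at 38.8, 40.5, 42.3, 44.8 and 40.3 CPM with TPA, against 52.2, 47.9, 53.5, 50.4 and 35.5 CPM with glutamate alone. It had the same arrangement of libraries, with a log2 fold change of −0.30 without replicate 5 (SE 0.05, adjusted p 0.0342 by the same test) and −0.21 with it. Kcna4 and Bmp3 were named after their values were seen.

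The gene with the smallest p, and the only one called by DESeq2 and in the authors' deposited table, was Ypel1, which lies at chr16:17070139-17086736 and encodes a small protein with the zinc-binding Yippee domain. Ypel1 was at 115, 111, 113, 109 and 113 CPM with TPA, against 97.3, 91, 91.7, 106 and 99.8 CPM with glutamate alone. Every TPA library lay above every glutamate library. The means were 112 ± 2.6 CPM with TPA and 97.2 ± 6.24 CPM with glutamate alone, and the log2 fold change was 0.21 (SE 0.04). The unadjusted p was 3.95e-05 and the adjusted p 0.482 in edgeR's quasi-likelihood test. DESeq2 gave an adjusted p of 0.00729 for the same 0.21, and edgeR without glutamate replicate 4 gave 0.24 with an adjusted p of 0.0295, as 1 gene of 14473 called in that fit (0.00691%). As levels, Ypel1 averaged 94.2 ± 4.06 CPM in the ZnCl2 group and 106 ± 2.4 CPM in control. Its family did not share a direction, with Ypel3 at a log2 fold change of 0.10 and Ypel2, Ypel4 and Ypel5 at −0.13, −0.10 and −0.091. Of the family of 5, Ypel1 was higher and Ypel2 lower at an unadjusted p under 0.05, and the family median was −0.091.

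Below, genes are named by rank of p, so their position is how they were chosen. Of the 10 genes with the smallest p above 0, 6 had groups that did not overlap, and log2 fold changes ran from 0.14 to 0.45, with p from 3.95e-05 to 0.000718 and an adjusted p of 0.482 each by edgeR's quasi-likelihood test. Il1rap, the shared co-receptor of the interleukin-1 family, was at 6.1, 7.37, 7.6, 7.26 and 7.51 CPM with TPA, against 5.92, 5.48, 5.77, 6.27 and 5.63 CPM with glutamate alone. TPA replicate 1 lay inside the glutamate range, the other 4 above it, and the log2 fold change was 0.30 (SE 0.07), or 0.35 without that library. Of the 10 tested members of its family of 18 receptors and adaptors, 6 were above 0 with a median of 0.019, and Il1rap was the 1 member with an unadjusted p under 0.05. Plxna3, a semaphorin receptor of growing axons, was at 108, 119, 111, 110 and 116 CPM with TPA, against 104, 97.7, 96.3, 97 and 104 CPM with glutamate alone. Its groups did not overlap (log2 fold change 0.18, SE 0.04). Of 29 tested semaphorins, plexins and neuropilins, 22 were above 0 (51.3% of all genes), with a median of 0.062, and 3 were higher and 0 lower at an unadjusted p under 0.05 (3.19% and 4.11% of all genes). The secreted Sema3f was 1 of the 3, at 6.8 CPM with TPA and 5.37 CPM with glutamate alone (log2 fold change 0.34).

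Several matrix genes stood in the same part of the ranking. Fn1, fibronectin, at chr1:71585473-71653234, was at 14.6, 15.1, 15.4, 17.2 and 15.6 CPM with TPA, against 13.5, 9.19, 11.9, 9.52 and 12.9 CPM with glutamate alone. The groups did not overlap, the means were 15.6 ± 0.977 CPM with TPA and 11.4 ± 1.98 CPM with glutamate alone, and the log2 fold change was 0.45 (SE 0.11). Col12a1, a collagen that sits on the surface of fibrils, was at 9.62, 10.3, 8.02, 7.97 and 10.4 CPM with TPA, against 7.41, 6.33, 6.42, 6.25 and 8.51 CPM with glutamate alone. Glutamate replicate 5 overlapped the TPA libraries, and the log2 fold change was 0.40 (SE 0.10), or 0.49 without that library. In a list of 40 tested collagens and fibronectin, drawn up after these values were seen, 24 were above 0 and 16 below with a median of 0.072. At an unadjusted p under 0.05, 6 were higher, namely Fn1, Col6a3, Col12a1, Col5a1, Col9a3 and Col4a1, and Col24a1 was lower, against 3.19% and 4.11% of all genes, and Fn1 and Col12a1 were the reason for drawing up the list. The summed mural and fibroblast markers given above overlapped between the groups, and their part in the matrix genes was not tested.

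Actin-related genes had a median log2 fold change of 0.10, with 13 of 18 tested above 0, against 51.3% of all genes, and 4 higher at an unadjusted p under 0.05, against 3.19%. Flna, which crosslinks actin filaments, was at 215, 251, 229, 230 and 266 CPM with TPA, against 215, 162, 191, 205 and 225 CPM with glutamate alone, with overlap and a log2 fold change of 0.26 (SE 0.07). Fblim1, an adaptor of filamin, was at 7.63, 6.85, 6.5, 5.9 and 7.96 CPM with TPA, against 5.38, 5.24, 4.39, 6.05 and 5.93 CPM with glutamate alone (log2 fold change 0.37). Tagln2 and the smooth-muscle actin Acta2 were at log2 fold changes of 0.35 and 0.65, the last from means under 1 CPM. Among the remaining genes of the top 10, Ppp1r18 was at 11.4 to 13 CPM with TPA and 10.1 to 11.2 CPM with glutamate alone, Gpr52, an orphan receptor, at 4.5 to 5.48 CPM and 3.56 to 4.23 CPM, and the RNA-binding Pcbp4 at 149 to 155 CPM and 126 to 148 CPM. None of these 3 overlapped between groups. Crip2, a LIM-domain protein, and Igsf9, a cell-adhesion protein of dendrites, overlapped, with log2 fold changes of 0.15 and 0.34.

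**Figure D4:**
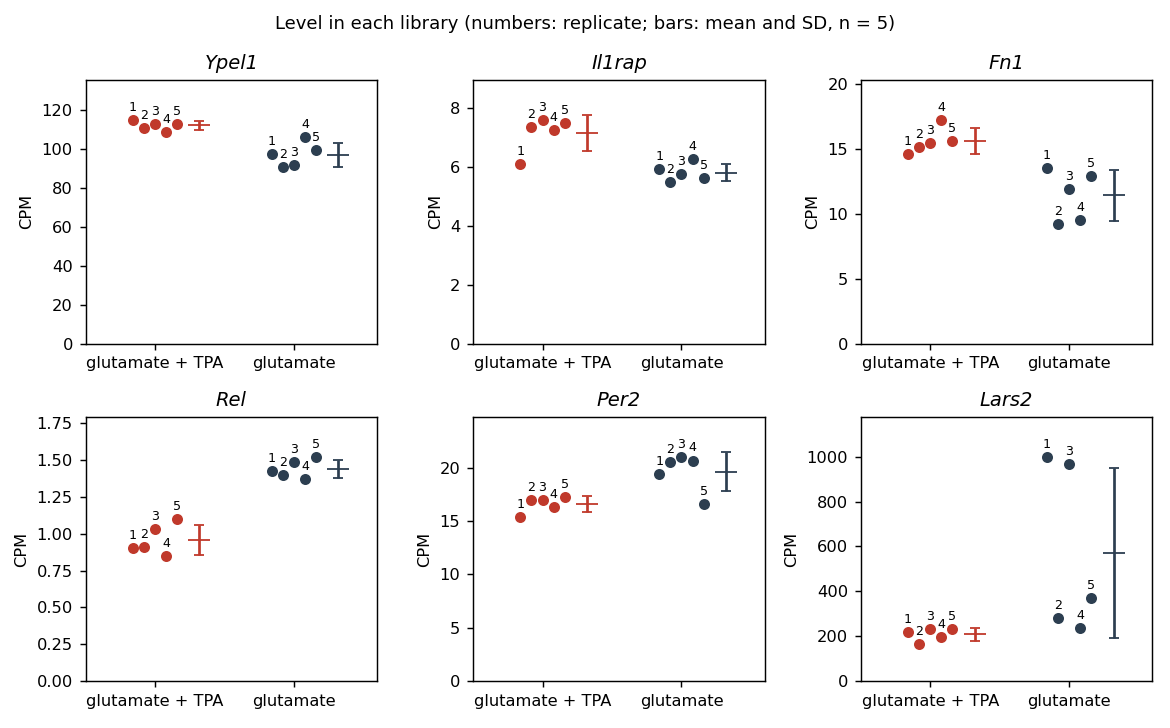
CPM of Ypel1, Il1rap, Fn1, Rel, Per2 and Lars2 in each library, with TPA on the left and glutamate on the right of each panel. Points carry the replicate number, and bars give the mean and SD of 5 libraries. The groups do not overlap for Ypel1, Fn1, Rel and Lars2, and for Lars2 glutamate replicates 1 and 3 lie near 1000 CPM at 998 and 970.

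Of the 10 genes with the smallest p below 0, 7 had groups that did not overlap, with p from 0.000111 to 0.000851 and an adjusted p of 0.482 each by edgeR's quasi-likelihood test. Lars2, the mitochondrial leucyl-tRNA synthetase, was at 219, 163, 231, 195 and 230 CPM with TPA, against 998, 280, 970, 237 and 371 CPM with glutamate alone. The groups did not overlap, but glutamate replicates 1 and 3 lay far above the rest. The log2 fold change was −1.46 (SE 0.31), the means were 208 ± 28.8 CPM with TPA and 571 ± 380 CPM with glutamate alone, and as levels Lars2 averaged 305 ± 46.6 CPM in the ZnCl2 group and 325 ± 98.9 CPM in control. Counts at the annotated Mir6236 locus, which are no measure of a mature microRNA, had the same 2 libraries apart. They were 0.672, 0.948, 0.979, 0.613 and 0.956 CPM with TPA, against 6.06, 1.51, 6.22, 0.8 and 1.43 CPM with glutamate alone, with overlap. Elk4 and Mest, named after their values were seen, were also high in glutamate replicates 1 and 3, at 23.2 and 23.8 CPM for Elk4 and 128 and 127 CPM for Mest, where the TPA libraries ran from 13.5 to 15 CPM and from 63.4 to 92.6 CPM. The part of these 2 libraries in the results was not tested, nor was which RNA the reads counted for Lars2 and Mir6236 came from.

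Fadd, the adaptor that couples death receptors to caspase-8, was at 1.71, 1.93, 1.7, 2.01 and 2.19 CPM with TPA, against 3.03, 2.83, 2.25, 2.47 and 2.56 CPM with glutamate alone. The groups did not overlap and the log2 fold change was −0.47 (SE 0.11). Rel, the NF-κB subunit c-Rel, was at 0.905, 0.913, 1.03, 0.852 and 1.1 CPM with TPA, against 1.43, 1.4, 1.49, 1.37 and 1.52 CPM with glutamate alone. The spread within each group was small, the groups did not overlap, and the log2 fold change was −0.58 (SE 0.14). In a list of 12 tested NF-κB genes drawn up after these values were seen, 5 were above 0 and 7 below with a median of −0.02. The 2 members with an unadjusted p under 0.05 were Rel and Nfkb1, both lower, against 4.11% of all genes lower at that p. Rel had already been named by its p, so its place in this count is no separate evidence. Nfkb1, the precursor of the p50 subunit, was at 9.51, 9.66, 8.63, 8.38 and 9.22 CPM with TPA, against 10.8, 11.1, 11.7, 10.2 and 9.79 CPM with glutamate alone, also without overlap (log2 fold change −0.24, SE 0.07).

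Per2, a core repressor of the circadian clock that is also induced by activity, was at 15.4, 17, 17, 16.3 and 17.3 CPM with TPA, against 19.4, 20.6, 21, 20.7 and 16.6 CPM with glutamate alone. Glutamate replicate 5 lay among the TPA libraries and the other 4 above them, with a log2 fold change of −0.25 (SE 0.06), or −0.30 without that library. Of 17 clock genes tested, 7 were above 0 and 10 below with a median of −0.035, and Per2, Per1 and Bhlhe40 were lower at an unadjusted p under 0.05, against 4.11% of all genes. The log2 fold changes of Per1 and Bhlhe40, both also induced by light or activity, were −0.20 and −0.15. Clock, Arntl and Nr1d1 lay near 0, at 0.011, 0.026 and 0.022.

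Jarid2, a partner of the Polycomb repressive complex that methylates histone H3, was at 46.5, 52, 49.5, 51.9 and 49 CPM with TPA, against 55.4, 55.3, 61.3, 57.5 and 52.8 CPM with glutamate alone, without overlap (log2 fold change −0.18, SE 0.05). The zinc-finger homeobox repressor Zhx2 was at 33.4 to 34.9 CPM with TPA and 37.7 to 42.5 CPM with glutamate alone, and the nucleolar protein Noc3l at 16.6 to 18.8 CPM and 19.1 to 21.7 CPM. Zfp280b, a zinc-finger protein, was at 7.32 to 8.43 CPM with TPA and 9.2 to 10.4 CPM with glutamate alone. Ing5, a histone-mark reader of acetyltransferase complexes, overlapped between groups at a log2 fold change of −0.33.

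Receptor, channel and synaptic genes had medians close to 0. NMDA receptor subunits (6 of 7 tested) had 3 above 0 and 3 below with a median of 0.0045. Grin2b, the subunit of juvenile NMDA receptors, was at 104, 153, 115, 133 and 164 CPM with TPA, against 235, 152, 200, 61 and 133 CPM with glutamate alone. Its glutamate libraries spanned more than its TPA libraries, and the log2 fold change was −0.22 (SE 0.23). Medians were 0.017 over 10 AMPA receptor subunits and auxiliary TARPs, 0.036 over 12 kainate and metabotropic receptors, and 0.031 over 12 GABA-A receptor subunits. Of the 12 kainate and metabotropic receptors, 3 were higher and 0 lower with TPA at an unadjusted p under 0.05, against 3.19% and 4.11% of all genes. The presynaptic metabotropic receptor gene Grm2 averaged 54.5 CPM with TPA and 44.3 CPM with glutamate alone (log2 fold change 0.30), with overlap. Gabra3, a GABA-A receptor subunit, was at 60.3 to 67.4 CPM with TPA and 52.5 to 58.6 CPM with glutamate alone, without overlap (log2 fold change 0.19).

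Among calcium channels, calmodulin-dependent kinases and postsynaptic scaffolds, 13 of 17, 9 of 11 and 13 of 15 tested members were above 0, with medians of 0.05, 0.063 and 0.042. The presynaptic release genes had 14 of 23 above 0 and a median of 0.027. Of 55 tested clustered protocadherins, cell-surface proteins that give neurons their identity, 46 were above 0 with a median of 0.053, and 5 were higher and 1 lower at an unadjusted p under 0.05. The shares of all genes were 51.3% above 0 and, at that p, 3.19% higher and 4.11% lower. Glutamate replicate 4 was the lowest glutamate library for 39 of these 55 genes, and its list median was −0.17, where the other glutamate libraries ran from −0.015 to 0.032. Leaving it out gave a median of 0.026 for the protocadherins, 0.015 for the calcium channels and 0.0055 for the scaffolds. Its part in these values was not tested further.

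Housekeeping lists also lay near 0. Of 81 tested cytosolic ribosomal protein genes, 68 were above 0 with a median of 0.041 and 1 was higher at an unadjusted p under 0.05, against 3.19% of all genes. The median was −0.012 without glutamate replicate 3, whose ribosomal list median of −0.24 was the lowest of the 10 libraries, and 0.068 without TPA replicate 2. Nuclear genes of oxidative phosphorylation had 36 of 79 above 0 and a median of −0.0056, nuclear-retained long noncoding RNAs 6 of 9 above 0 and 0.02, and cholesterol synthesis genes 12 of 20 above 0 and 0.013.

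Other metals and stresses were examined because TPA can bind metals besides zinc. Iron-handling genes had 7 of 14 above 0 and a median of 0.011. Hmox1, the haem-degrading and stress-induced oxygenase, was at 8.84, 8.74, 7.58, 8.52 and 5.93 CPM with TPA, against 9.81, 12.8, 11.6, 12.5 and 7.62 CPM with glutamate alone. Glutamate replicate 5 lay among the TPA libraries, and the log2 fold change was −0.46 (SE 0.16, adjusted p 0.642 by edgeR's quasi-likelihood test), and −0.57 without that library. Copper-handling genes had 5 of 11 above 0 and a median of −0.0067, with the importer Slc31a1 at −0.13 and the assembly factor Sco1 at −0.20.

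Hypoxia-inducible genes had 10 of 20 above 0 with a median of 0.003, and the hexokinase gene Hk2 was at a log2 fold change of −0.41. NRF2 antioxidant genes had 8 of 14 above 0 with a median of 0.007. Gclc, the rate-limiting enzyme of glutathione synthesis, was at 47.9 to 51.2 CPM with TPA and 45 to 47.9 CPM with glutamate alone (log2 fold change 0.086). Genes induced by p53 had 2 of 13 above 0 with a median of −0.067, and 1, the cell-death gene Pmaip1, was lower at an unadjusted p under 0.05 (log2 fold change −0.15), against 4.11% of all genes.

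**Figure D5:**
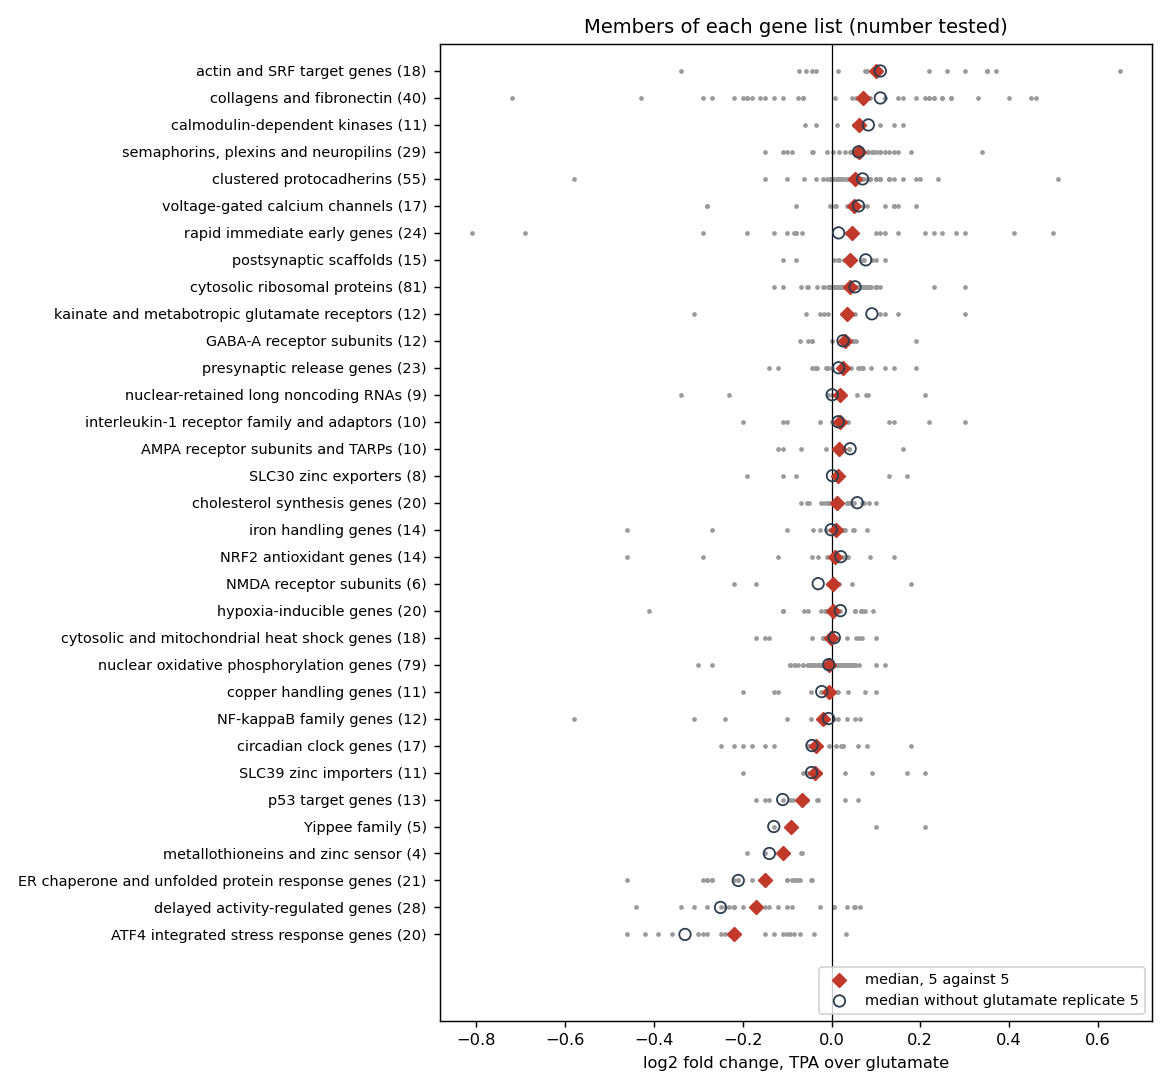
Log2 fold change of TPA over glutamate for each tested member (grey points) of 33 gene lists, with the list median from all libraries (red diamonds) and without glutamate replicate 5 (open circles). The ATF4, later activity and chaperone lists have the lowest medians, at −0.22, −0.17 and −0.15, and move to −0.33, −0.25 and −0.21 without that library.

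Weighting the libraries changed how many genes were called. With limma's quality weights, which reduce the influence of glutamate replicates 4 and 5 and TPA replicate 1, limma-voom called 484 genes (3.36%), 226 higher with TPA (1.57%) and 258 lower (1.79%). With these 3 libraries left out, an alternative chosen after seeing the data, edgeR called 98 of 14508 genes (0.675%), 39 higher (0.269%) and 59 lower (0.407%). Of the genes called, 92 were shared, which is 19% of the weighted calls and 93.9% of the others. Since the 3 libraries were singled out by how far they lay from their groups, these counts depend on that choice.

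Over all genes, the weights called 1.57% higher and 1.79% lower with TPA. Of 21 chaperone genes tested, 6 were lower, among them Pdia4 (log2 fold change −0.32, adjusted p 0.0221 by limma-voom), Hsp90b1 (−0.26, 0.0264) and Hyou1 (−0.33, 0.0264). Of 28 later activity genes tested, 5 were lower, namely Bdnf (−0.33, adjusted p 0.0311 by limma-voom), Spry4, Pcsk1, Per1 and Per2. Of 20 ATF4 genes tested, 3 were lower, namely Psat1, Ppp1r15a and Aldh1l2. Of 24 rapid immediate early genes tested, 5 were higher and 1 lower. The higher ones were Egr1 (0.40, adjusted p 0.0293 by limma-voom), Egr4, Junb, Cyr61 and Ier5, and Maff was lower (−0.89, adjusted p 0.0264). Of the zinc-handling genes, Slc39a11 alone was called, with an adjusted p of 0.0276 by limma-voom. Calls were not confined to these lists. Others were higher, such as Fn1, Tagln2, Cacnb3, Camk2b, Grik5 and Tubb3, or lower, such as Rel, Nfkb1, Slc31a1, Sco1, Hk2 and Slc17a6. With the 3 libraries left out, Ypel1, Il1rap, Flna, Tagln2, Junb, Egr4, Col4a1 and Rps2 were the list members higher and Pcsk1 and Per2 those lower in edgeR, and 0 chaperone and 0 ATF4 genes passed.

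Fold changes followed the base composition of transcripts slightly. In the fifth of genes with the lowest GC content (31 to 43.8%), the median log2 fold change was −0.014 and 43.6% were above 0. In the fifth with the highest GC content (55.5 to 82.2%) it was 0.028 and 64.5% were above 0. With an offset on GC content the medians were 0.0039 and 0.002, and edgeR called 0 genes with 1086 at an unadjusted p under 0.05 (7.54%). GC content was known for 14320 of the genes tested (99.4%).

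The authors' deposited table of the same comparison holds 1 gene of 20200 past an adjusted p of 0.05 (0.00495%). In the authors' deposited table, Ypel1 has a shrunken log2 fold change of 0.18 with an adjusted p of 0.0111. The next genes in the authors' deposited table are Lars2, Crip2, Fn1 and Plxna3, at −0.15, 0.14, 0.24 and 0.16, each with an adjusted p of 0.145. In the authors' deposited table, Mt1 and Mt2 are at −0.054 and −0.12 with adjusted p-values of 1 and 0.864, and Bdnf, Egr1 and Pdia4 are at −0.14, 0.17 and −0.17 with adjusted p-values of 0.831, 0.664 and 0.557.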

How the data were processed

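Polyadenylated RNA was sequenced from stranded libraries, per the labels' protocols. Per the submitters' processing notes, the tools were featureCounts, Trimmomatic 0.36, SAMtools 1.3.1, HISAT2 2.1.0, DESeq2 1.14.1 and R 3.3.0, with mm10. Use of strand in counting is not given in the sources, so overlapping and antisense genes may share reads. The authors deposited whole-number counts for 24419 genes, the only values tested here. They also deposited TPM, made from counts and the annotated gene length in bases. Their deposited table of this comparison holds a mean normalized signal, a Wald score, a shrunken log2 fold change and its error, a p-value and an adjusted p-value.

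The 10 libraries were compared as a contrast between group means in edgeR 4.0.16 (quasi-likelihood, R 4.3.3), fitted to all 20 libraries of the 4 groups, with TMM factors, the default expression filter (14411 genes kept) and Benjamini-Hochberg adjustment at 0.05. Log2 CPM used a prior count of 2. The test was checked on simulated data in which no library was set apart. That check does not cover the outlying libraries described above. The members of every list, and the tests, were chosen with earlier results of these data known. Genes were named by rule: the 10 smallest p-values in each direction at 1 CPM or more, genes called by DESeq2 or the authors, a fixed set of activity, zinc and Yippee genes, the 4 smallest p-values of each list and the 2 most abundant markers of each cell type. Further list members, and other genes named to illustrate a list or a library, were chosen after their values were seen. Alternatives were DESeq2 1.42.0, limma 3.58.1's voom with and without library quality weights, other scaling and filters, a replicate block and single omissions. A GC offset (loess, span 0.5) and a fit without 3 libraries were added after seeing the data. Promoter sequences are from RefSeq (GRCm38.p6).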

Additional observations from a re-analysis of the deposited data

Results flagged for a closer look

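Single libraries lay far from the other 4 of their group in 25 of 430 sets of values examined. Far means a gap of more than 0.71 of the group's range, and chance alone gives about 1 in 20. The total is near that rate. The sets are not independent, since list medians and members of the same lists are both counted. The values below are therefore descriptions of libraries. Glutamate replicate 5 accounted for 10 of the 25 sets, TPA replicate 1 for 6, glutamate replicate 4 for 4, TPA replicate 5 for 3, and TPA replicate 4 and glutamate replicate 3 for 1 each.

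Glutamate replicate 5 had a median log2 deviation of −0.334 for the later activity genes, where the other glutamate libraries ran from 0.106 to 0.272, and of −0.261 for the ATF4 genes, where they ran from 0.103 to 0.244. Its median for the calmodulin-dependent kinases was 0.107, where the others ran from −0.0696 to −0.0327, and its summed pan-neuronal markers were at 7410 CPM, where the others ran from 6780 to 6950 CPM. Among single genes it was low for Spry4 (12.1 CPM), for the iron exporter Slc40a1 (3.32 CPM, the others 7.45 to 8.98 CPM) and for the GABA-synthesis genes Gad1 (535 CPM, the others 649 to 671 CPM) and Gad2 (216 CPM, the others 260 to 271 CPM). It was high for Me1, which makes NADPH from malate (111 CPM, the others 90.6 to 93.8 CPM), and for Mvk, of cholesterol synthesis (93.7 CPM, the others 73.9 to 79 CPM).

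Glutamate replicate 4 had list medians of −0.192 for the calcium channels, where the other glutamate libraries ran from −0.00477 to 0.0459, of −0.157 for the GABA-A receptor subunits (the others −0.0187 to 0.0266) and of −0.169 for the clustered protocadherins (the others −0.015 to 0.0316). Its Pcbp2, an RNA-binding protein gene, was at 208 CPM, the others at 188 to 193 CPM. Glutamate replicate 3 had Myd88, an adaptor of the interleukin-1 receptors, at 3.38 CPM, the others at 2.05 to 2.39 CPM.

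TPA replicate 1 had a median of −0.111 for the SLC30 exporters, where the other TPA libraries ran from 0.0137 to 0.0301, and was low for Slc30a4 (73.2 CPM, the others 88.8 to 93.3 CPM) and for the importer Slc39a9 (81.1 CPM, the others 87.4 to 87.9 CPM). It was also low for Il1rap (6.1 CPM) and Pcdha10 (5.53 CPM, the others 6.78 to 6.92 CPM) and high for Pcbp2 (223 CPM, the others 193 to 196 CPM). TPA replicate 5 had Aen, a p53 target, at 35.3 CPM (the others 39.4 to 40.9 CPM), the calcium channel subunit Cacnb2 at 33.6 CPM (the others 31.7 to 32.1 CPM) and Pcdhb7 at 19.6 CPM (the others 18 to 18.4 CPM). TPA replicate 4 had the complement gene C1qc, of microglia, at 1.26 CPM, the others at 0.478 to 0.698 CPM.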

How the results depend on the processing

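Over the single omissions, the number of genes past an adjusted p of 0.05 ran from 0 to 2, with 1 without glutamate replicate 4 and 2 without glutamate replicate 5. Genes at an unadjusted p under 0.05 ran from 678, reached without glutamate replicate 2 and also without glutamate replicate 3, to 2183 without glutamate replicate 5, against 1052 with all libraries. Genes whose groups did not overlap ran from 195 to 1009, against 148, with 337 without TPA replicate 1, 224 without TPA replicate 2, 264 without TPA replicate 3, 378 without glutamate replicate 4 and 1009 without glutamate replicate 5. Fewer libraries make an arrangement without overlap easier to reach. DESeq2 called 1 gene. The library quality weights gave 484 genes past the adjusted threshold and 3129 at an unadjusted p under 0.05, and leaving out the 3 libraries of lowest weight gave 98, 2594 and, without overlap, 3094. With library size alone, 30.8% of genes at an unadjusted p under 0.05 were higher with TPA, and over the single omissions this share ran from 38.1 to 45.7%. The difference in the share of the 10 most abundant genes, TPA minus glutamate, ran from −0.0056 to 0.0421 percentage points, and that in totals from −4970000 to −2450000 counts.

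Of 168 named genes, 11 changed sign under some setting, all with values near 0 or a wide spread, and 48 passed the adjusted threshold under some setting. Neurod6 was at −0.0099 with library size alone and −0.00025 without a filter. Under the quality weights Fos was at −0.00061, Reln at −0.01, Ndnf at −0.054 and Olig1 at 0.30. Without the 3 libraries Fos was at −0.014, Grin3a at −0.025, Reln at −0.053, Ndnf at −0.079 and Olig1 at 0.36. Over the single omissions the log2 fold change ran from −0.093 to 0.16 for Fos, from −0.23 to 0.021 for Nr4a1, from −0.0054 to 0.071 for Grin3a, from −0.019 to 0.047 for Neurod6, from −0.084 to 0.00093 for Gad1, from −0.0072 to 0.10 for Ndnf, from −0.0076 to 0.065 for Mbp, from −0.26 to 0.10 for Olig1, from −0.10 to 0.27 for Dcn and from −0.61 to 0.13 for Ttr. The cause was not tested.

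Same-numbered TPA and glutamate libraries had correlations of their deviations from −0.0699 to 0.197. Those of different number ran from −0.189 to 0.292, and the numbers were not taken as pairs. These correlations over all genes do not show that the numbers share nothing. On the first principal component, TPA replicates 1 to 5 rose in order, at −1.19, 1.95, 6.1, 9.15 and 13.1. In the same order, ZnCl2 libraries lay at −15, −19.5, −8.62, 3.13 and 17.4, and control libraries at −5.44, −1.23, 7.18, 9.04 and 5.46. Glutamate libraries lay at −6.42, −11.7, −8.73, −15 and 20.3. With the replicate block, edgeR called 0 genes, and it changed no call. It gave 1442 genes at an unadjusted p under 0.05, against 1052 without the block. An effect shared by replicate number was not tested further. Depth limits genes near the floor of 3 counts.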
